A study of Mus musculus with 8 samples.

Results

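The mitochondrially encoded transcripts are the genes carried by the mitochondrial chromosome. They were taken as the rows of the deposited table whose gene name starts with MT- and whose chromosome is the mitochondrial one. This gave 37 genes of 58304 kept, namely 13 mRNAs, 2 rRNAs and 22 tRNAs, and all 37 had values in all 8 libraries. RNA-seq was given for 4 libraries labelled rFGF4, from wounds that received recombinant fibroblast growth factor 4, and 4 labelled PBS, from wounds that received the buffer alone. Per the labels, both groups came from skin of C57BL/6 mice aged 6 to 8 weeks, taken from the 2 mm around the wound on day 6. The gene identifiers of the table were, however, all 58304 human and 0 mouse, so the values below are those of human genes under these labels and nothing is said of mouse tissue. The libraries were told apart by their column names alone. No source used here gives the cells the table describes. Nor do the labels say whether the 4 libraries of a group came from separate animals or cultures, so p-values measure the spread between these libraries, which may be technical.

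The mitochondrial genome is a small circle transcribed from both strands, called heavy and light, into long precursors. The tRNAs lie between most of the mRNAs and rRNAs, and cutting the precursor at the tRNAs releases the individual RNAs. The mRNAs encode core subunits of respiratory complexes I, III and IV and of complex V, the ATP synthase. All other subunits of these complexes, and all proteins that copy, transcribe, process and translate the mitochondrial genome, are encoded in the nucleus. All but 1 of the mRNAs lie along 1 strand, and MT-ND6 alone lies along the other with some of the tRNAs. Members of the table named MTND, MTCO, MTATP and the like with a P and a number are nuclear pseudogenes, fragments of the mitochondrial genome that sit in nuclear chromosomes.

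The libraries held 62044121 to 73680756 counts, and 11536 genes averaging 1 FPKM or more were tested. FPKM, the fragment number relative to gene length and library size, serves here to compare genes with each other. CPM, counts relative to library size with TMM scaling factors, serves to compare libraries. Basal keratinocyte markers reached a mean of 1 FPKM for 6 of 6 genes, at 1855 to 1993 FPKM summed in the rFGF4 libraries and 2016 to 2305 in the PBS libraries. Of these 6, 4 had log2 fold changes above 0 and 0 were called (median 0.058, range −0.22 to 0.20), and the part of these differences in the results below was not tested. Dermal fibroblast (6 genes), skeletal muscle (4) and erythrocyte (3) markers had 0 genes at that level, and the immune and endothelial lists had 1 of 4 each. A gene in a library was said to stand apart when Dixon's test set it off from the other 3 of its group. That held for 419 of the tested genes in rFGF4 replicate 4 and 338 in PBS replicate 4, and for 95 to 191 in each of the other 6 libraries, where chance sets apart about 1 in 20 genes of a group, spread over its 4 libraries. In bulk RNA, more mitochondrial RNA per cell and more cells rich in it cannot be told apart.

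Mitochondrial genes took about the same part of the libraries in both groups. They held 10.4, 9.15, 11.7 and 12.9% in rFGF4 replicates 1 to 4, against 10.2, 10.8, 9.62 and 10.7% in PBS replicates 1 to 4. The groups overlapped, with the highest share in rFGF4 replicate 4 and the lowest in rFGF4 replicate 2. The mean share was 11.1 ± 1.63% in the rFGF4 libraries and 10.3 ± 0.542% in the PBS libraries (SD, n = 4 each), a difference of 0.739 percentage points that was smaller than the SD of the rFGF4 libraries. That difference depended on single libraries: it was 0.114 percentage points without rFGF4 replicate 4 and 1.37 without rFGF4 replicate 2. The 13 mRNAs made up most of the share, with 9.83 ± 1.49% in the rFGF4 libraries and 9.11 ± 0.496% in the PBS libraries. The 2 rRNAs held 1.18 ± 0.139% in the rFGF4 libraries and 1.16 ± 0.0708% in the PBS libraries, and the 22 tRNAs held 0.0536 ± 0.00632% in the rFGF4 libraries and 0.0521 ± 0.00166% in the PBS libraries. The groups overlapped in each class. How RNA was selected for the libraries is not stated here, so the part of a class in the counts need not be its part in the cells.

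**Figure D1:**
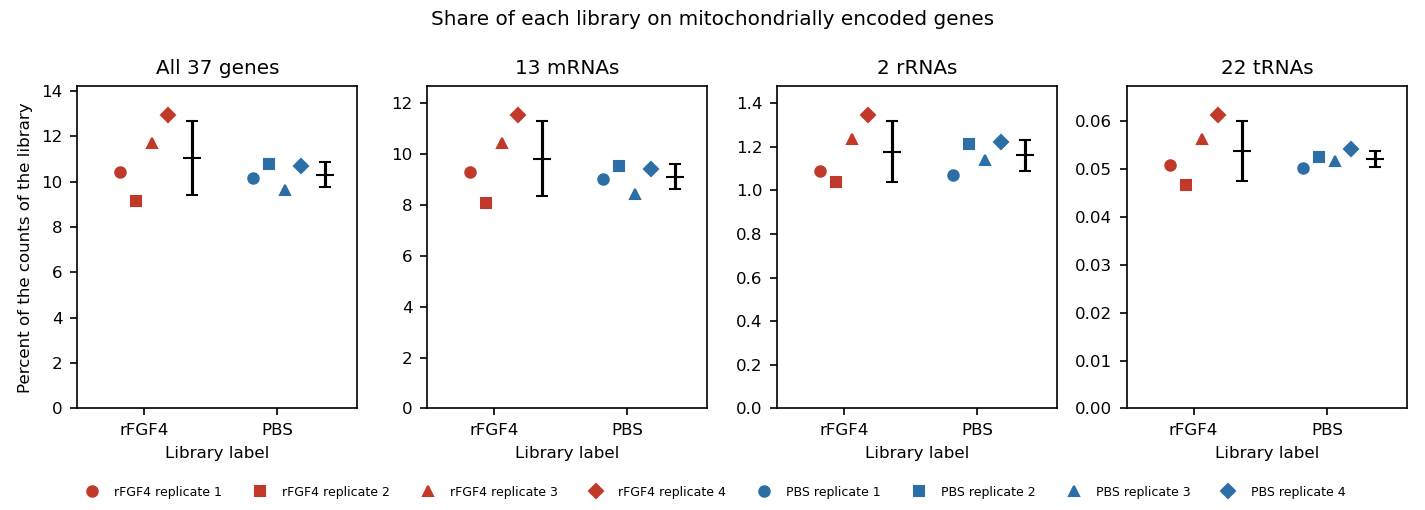
Percent of the counts of each library (vertical axis, from 0) on all 37 mitochondrially encoded genes, the 13 mRNAs, the 2 rRNAs and the 22 tRNAs, for libraries labelled rFGF4 and PBS; points are libraries, bars mean ± SD (n = 4). In each panel rFGF4 replicate 4 is highest, rFGF4 replicate 2 is lowest, and the PBS libraries lie between them.

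Mitochondrial mRNAs had the highest levels per length in these libraries. By mean FPKM, the 10 genes with the highest levels of all were mitochondrial, as were 15 of the 20 highest, and by counts 8 of the 10 highest. MT-CO2 had the highest level in all, at 18763 ± 2456 FPKM in the rFGF4 libraries and 17512 ± 1217 FPKM in the PBS libraries (SD, n = 4 each). Among the mRNAs and rRNAs it was followed, in the mean over the 8 libraries, by MT-CO1, MT-CO3, MT-ATP8, MT-ND4, MT-ND4L, MT-ND1, MT-ND2, MT-RNR2, MT-CYB, MT-ATP6, MT-ND6, MT-ND3, MT-ND5 and MT-RNR1. Some neighbours in that order could not be separated library by library. MT-CO1 lay above MT-CO3 in 7 of 8 libraries, MT-ND4L above MT-ND1 in 6, MT-ND1 above MT-ND2 in 7, MT-ND2 above MT-RNR2 in 5, MT-ND6 above MT-ND3 in 3 and MT-ND3 above MT-ND5 in 7. The other 8 steps of the order held in all 8 libraries. The order takes reads as they were placed, and nuclear copies held part of them. MTATP6P1 averaged 2127 FPKM beside 3517 for MT-ATP6, and MTND2P28 averaged 681 FPKM beside 5907 for MT-ND2. MT-CYB, next above MT-ATP6 in the order, averaged 4662 FPKM, less than MT-ATP6 and MTATP6P1 together. That step therefore depends on where reads were placed. The rest of an order with the copies added was not tested. MT-ATP8 and MT-ATP6 lie far apart in the order although they share a transcript, so FPKM need not follow transcript number. The rRNAs, at 5653 FPKM for MT-RNR2 and 1037 FPKM for MT-RNR1 over all libraries, thus lay below 8 and 13 of the 13 mRNAs. Since the way RNA was selected is not stated here, levels of mRNAs, rRNAs and tRNAs relative to each other are those of the libraries. They need not be those of the cells. Counts on the tRNAs, which span 59 to 75 bases, cannot be told apart from those of precursors that hold them. Their mean levels ran from 14.2 FPKM for MT-TW to 1224 FPKM for MT-TC.

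**Figure D2:**
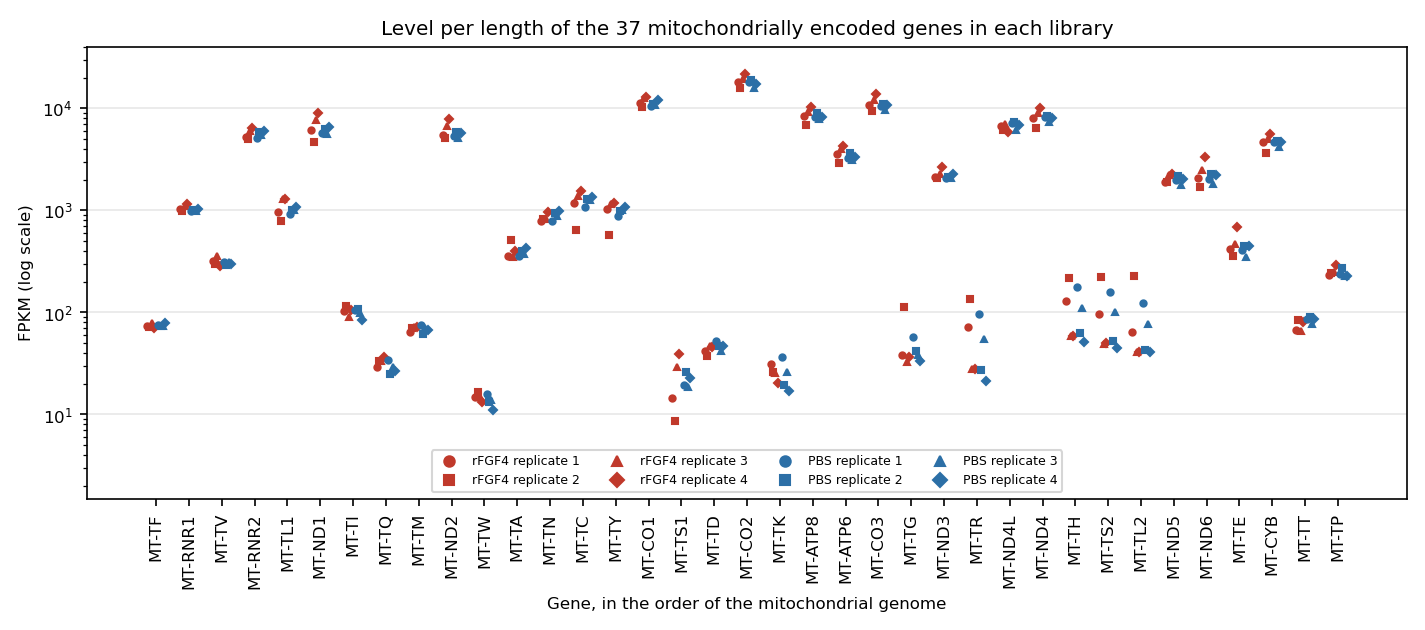
FPKM on a log scale for each of the 37 mitochondrially encoded genes in the order of the genome, with 1 point per library (rFGF4 to the left of PBS within a gene). The mRNAs and rRNAs lie between 983 and 21644 FPKM in every library, the tRNAs between 8.63 and 1553 FPKM, and the groups overlap for each gene.

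Between the groups, 0 of the 37 mitochondrially encoded genes passed the edgeR quasi-likelihood test at an adjusted p of 0.05, while 10.0% of all tested genes did (5.49% higher and 4.54% lower). The lowest adjusted p among the 37 was 0.358, for MT-TQ. Without adjustment, 0 of 37 were under 0.05, where 25.1% of all tested genes were. DESeq2 and limma on log2(FPKM + 1) also called 0 of 37, against 15.9% and 10.0% of the genes they tested, and neither put any of the 37 under an unadjusted p of 0.05. The CPM of the groups overlapped for all 37, whereas they did not overlap for 19.3% of all tested genes. The estimates were small and mostly above 0: 31 of 37 log2 fold changes were positive, with a median of 0.11, beside a median of 0.0015 over all tested genes. The count above 0 was the same under each scaling tried, and the 37 share precursors and libraries, so they are not independent of each other. The 95% intervals lay inside a 1.5-fold change either way for 26 of the 37, among them 11 of 13 mRNAs and both rRNAs, and inside a 2-fold change for 31. A difference inside those intervals was not detectable at this spread between libraries, which does not show that there was none.

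**Figure D3:**
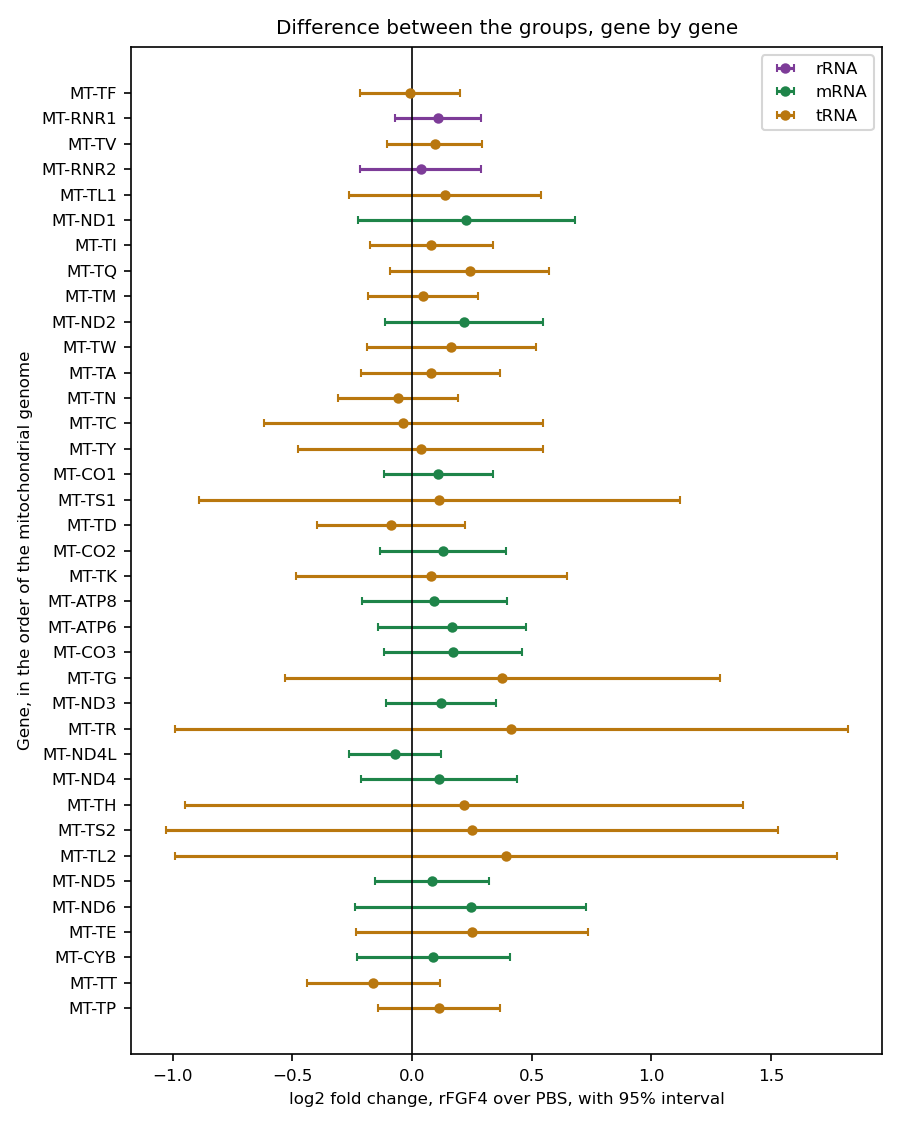
Log2 fold change of rFGF4 over PBS for each mitochondrially encoded gene in genome order, with the 95% interval from the edgeR fit; colours mark rRNAs, mRNAs and tRNAs. Every interval spans 0; the widest belong to MT-TR, MT-TL2, MT-TS2 and MT-TH.

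The rRNAs form the core of the mitochondrial ribosome. MT-RNR1 (12S, chromosome MT, 648 to 1601, + strand) is the RNA of the small subunit. It stood at 1172, 1102, 1282 and 1399 CPM in rFGF4 replicates 1 to 4, against 1112, 1171, 1107 and 1211 CPM in PBS replicates 1 to 4. The groups overlapped, with rFGF4 replicate 4 highest, and the fit gave a log2 fold change of 0.11 (95% interval −0.073 to 0.29, SE 0.079, edgeR adjusted p = 0.454). MT-RNR2 (16S, 1671 to 3229, + strand), the RNA of the large subunit, stood at 9763, 9113, 11465 and 12769.8 CPM in rFGF4 replicates 1 to 4, against 9547, 11078, 10170.5 and 11259.9 CPM in PBS replicates 1 to 4. Here the PBS libraries lay inside the range of the rFGF4 libraries, with a log2 fold change of 0.036 (95% interval −0.22 to 0.29, SE 0.11, edgeR adjusted p = 0.879). Per length, the level of MT-RNR2 was 5.06 to 5.79 times that of MT-RNR1, and this ratio of FPKM averaged 5.30 ± 0.265 in the rFGF4 libraries and 5.59 ± 0.234 in the PBS libraries, with overlap.

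Complex I, NADH dehydrogenase, takes electrons from NADH and holds 7 mitochondrially encoded subunits. MT-ND1 (3307 to 4262, + strand) encodes a membrane subunit near the quinone site. It stood at 7048, 5307, 9131 and 10893 CPM in rFGF4 replicates 1 to 4, against 6569, 7235, 6288 and 7575 CPM in PBS replicates 1 to 4. rFGF4 replicates 3 and 4 lay above all PBS libraries and rFGF4 replicate 2 below them all, so the groups overlapped, with a log2 fold change of 0.23 (95% interval −0.23 to 0.68, SE 0.20, edgeR adjusted p = 0.541). MT-ND2 (4470 to 5511, + strand), a proton-pumping subunit, had 6889.7, 6325, 8549.7 and 10239 CPM in rFGF4 replicates 1 to 4, against 6676, 7348, 6304 and 7228 CPM in PBS replicates 1 to 4, again with replicates 3 and 4 above the PBS range and replicates 1 and 2 inside it. The fit gave a log2 fold change of 0.22 (95% interval −0.11 to 0.55, SE 0.14, edgeR adjusted p = 0.408). Of the counts on MT-ND2 and its nuclear copy MTND2P28, the copy held 3.02% in rFGF4 replicate 2. In the other libraries it held 9.10 to 12.8%. The place of rFGF4 replicate 2 for MT-ND2 therefore depends on how reads were placed.

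MT-ND4 and MT-ND5 encode further proton-pumping subunits, and MT-ND3 a small membrane subunit that takes part in the coupling of electron transfer to pumping. MT-ND4 (10760 to 12137, + strand) stood at 13400.2, 10509.9, 15302 and 17576 CPM in rFGF4 replicates 1 to 4, against 13313, 13948, 11851 and 13418 CPM in PBS replicates 1 to 4. rFGF4 replicates 3 and 4 were again above the PBS libraries and rFGF4 replicate 2 below them, with an estimate of 0.11 (edgeR adjusted p = 0.690, SE 0.14). MT-ND5 (12337 to 14148, + strand), the longest of the 37 genes, stood at 4099, 4055, 4943 and 5212 CPM in rFGF4 replicates 1 to 4, against 4281, 4754, 3791 and 4451 CPM in PBS replicates 1 to 4, and its estimate was 0.084 (edgeR adjusted p = 0.683, SE 0.10). MT-ND3 (10059 to 10404, + strand) stood at 877, 854, 978 and 1164 CPM in rFGF4 replicates 1 to 4, against 859, 888, 851 and 964 CPM in PBS replicates 1 to 4, and its estimate was 0.12 (edgeR adjusted p = 0.518, SE 0.10). In MT-ND3 and MT-ND5 the lowest library was PBS replicate 3 and the highest rFGF4 replicate 4, with overlap of the groups.

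MT-ND6 (14149 to 14673, − strand) is the mRNA that lies along the other strand. It stood at 1308, 1051, 1589 and 2225 CPM in rFGF4 replicates 1 to 4, against 1253, 1427, 1117 and 1415 CPM in PBS replicates 1 to 4. The 2225 CPM in rFGF4 replicate 4 was the highest value, and the other 3 rFGF4 libraries spread around the PBS range, with a log2 fold change of 0.24 (95% interval −0.24 to 0.73, SE 0.21, edgeR adjusted p = 0.534). MT-TE, the glutamate tRNA next to it on the same strand (14674 to 14742), followed it library by library: the FPKM of MT-TE was 0.190 to 0.209 of that of MT-ND6 in all 8 libraries. MT-TE stood at 34.5, 28.9, 39.6 and 59.8 CPM in rFGF4 replicates 1 to 4, against 33.5, 37.5, 28.6 and 37.2 CPM in PBS replicates 1 to 4, highest in rFGF4 replicate 4 as well. Of the counts on the 13 mRNAs, MT-ND6 held 1.51 ± 0.223% in the rFGF4 libraries and 1.42 ± 0.0682% in the PBS libraries, and without rFGF4 replicate 4 the difference in means turned to −0.018 percentage points. The strand setting of the counting is not given, so counts of precursors from the opposite strand cannot be told apart from those of MT-ND6 and MT-TE.

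MT-ND4L (10470 to 10766, + strand) was the mRNA with a negative estimate. It shares 1 transcript with MT-ND4, and their spans overlap by 7 bases. It stood at 2412, 2142, 2568 and 2175 CPM in rFGF4 replicates 1 to 4, against 2507, 2623, 2138 and 2504 CPM in PBS replicates 1 to 4, with the groups overlapping and a log2 fold change of −0.072 (95% interval −0.26 to 0.12, SE 0.084, edgeR adjusted p = 0.662). In rFGF4 replicate 4, where 12 of the 13 mRNAs had their highest value, MT-ND4L did not. Its FPKM per FPKM of MT-ND4 was 0.835, 0.945, 0.779 and 0.574 in rFGF4 replicates 1 to 4, against 0.874, 0.872, 0.837 and 0.866 in PBS replicates 1 to 4, so the PBS libraries lay close together and rFGF4 replicates 4 and 2 at the ends.

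Complex III, which passes electrons to cytochrome c, holds 1 mitochondrially encoded subunit, cytochrome b. Its gene MT-CYB (14747 to 15887, + strand) stood at 6365, 4923, 7109.6 and 8111 CPM in rFGF4 replicates 1 to 4, against 6275, 6608, 5589 and 6451 CPM in PBS replicates 1 to 4. The PBS libraries lay inside the rFGF4 range, with a log2 fold change of 0.089 (95% interval −0.23 to 0.41, SE 0.14, edgeR adjusted p = 0.751). Complex IV, cytochrome c oxidase, hands electrons to oxygen, and its 3 mitochondrially encoded subunits had the highest levels of all. MT-CO1 (5904 to 7445, + strand), the catalytic subunit, stood at 20729.5, 18730.2, 23814 and 25289 CPM in rFGF4 replicates 1 to 4, against 19349, 20650.0, 19493 and 22558 CPM in PBS replicates 1 to 4. rFGF4 replicates 3 and 4 were above all PBS libraries and replicate 2 below them, with a log2 fold change of 0.11 (95% interval −0.12 to 0.34, SE 0.10, edgeR adjusted p = 0.554). MT-CO2 (7586 to 8269, + strand), the subunit that receives the electrons from cytochrome c, stood at 15023, 12653, 16291 and 18662 CPM in rFGF4 replicates 1 to 4, against 14593, 15466, 12803 and 14428 CPM in PBS replicates 1 to 4, with an estimate of 0.13 (edgeR adjusted p = 0.550, SE 0.11). MT-CO3 (9207 to 9990, + strand), a core subunit without a redox centre, stood at 10225, 8748, 11685 and 13662 CPM in rFGF4 replicates 1 to 4, against 9768, 10335, 8984 and 10287 CPM in PBS replicates 1 to 4, with an estimate of 0.17 (edgeR adjusted p = 0.462, SE 0.13). Both had rFGF4 replicate 2 at the bottom and rFGF4 replicate 4 at the top of the 8 libraries.

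Complex V makes ATP, and MT-ATP6 and MT-ATP8 encode subunits of its membrane part. MT-ATP8 (8366 to 8572) and MT-ATP6 (8527 to 9207) share 1 transcript, and their spans overlap by 46 bases. MT-ATP8 stood at 2079.6, 1681, 2336 and 2681 CPM in rFGF4 replicates 1 to 4, against 2016, 2253, 1897 and 2061 CPM in PBS replicates 1 to 4, and MT-ATP6 at 2900.0, 2321, 3323 and 3706 CPM in rFGF4 replicates 1 to 4, against 2649, 3011, 2481 and 2770.2 CPM in PBS replicates 1 to 4. Both overlapped between the groups, with log2 fold changes of 0.093 (edgeR adjusted p = 0.726, SE 0.13) and 0.17 (edgeR adjusted p = 0.505, SE 0.14). The FPKM of MT-ATP6 per FPKM of MT-ATP8, both on 1 transcript, was 0.424, 0.420, 0.432 and 0.420 in rFGF4 replicates 1 to 4, against 0.399, 0.406, 0.398 and 0.409 in PBS replicates 1 to 4. This ratio, picked out after its values were seen, lay higher in all 4 rFGF4 libraries than in any PBS library, at 0.424 ± 0.00587 in the rFGF4 libraries and 0.403 ± 0.00527 in the PBS libraries (SD, n = 4 each). With the counts of the nuclear copy MTATP6P1 added to MT-ATP6, the ratio was 0.675 ± 0.0252 in the rFGF4 libraries and 0.650 ± 0.0113 in the PBS libraries, and the groups overlapped.

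The makeup of the mitochondrial mRNA differed little between the groups. Of the mitochondrial mRNA counts, the complex IV mRNAs held 48.8 ± 1.41% in the rFGF4 libraries and 48.8 ± 0.591% in the PBS libraries. The complex I mRNAs held 39.4 ± 1.19% in the rFGF4 libraries and 39.2 ± 0.386% in the PBS libraries. MT-CYB held 6.58 ± 0.260% in the rFGF4 libraries and 6.80 ± 0.128% in the PBS libraries, and the complex V mRNAs held 5.22 ± 0.123% in the rFGF4 libraries and 5.22 ± 0.177% in the PBS libraries. Each of these shares overlapped between the groups. The mRNA counts per rRNA count were 8.54, 7.76, 8.44 and 8.58 in rFGF4 replicates 1 to 4, against 8.45, 7.88, 7.41 and 7.71 in PBS replicates 1 to 4, with overlap.

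The members spread more between libraries in the rFGF4 group, as did most genes. The coefficient of variation of CPM was larger there for 13 of 13 mRNAs and for 32 of all 37 members, with medians over the mRNAs of 19.2% in the rFGF4 libraries and 7.23% in the PBS libraries. Over all tested genes it was larger in the rFGF4 group for 65.1%, with medians of 11.5% in the rFGF4 libraries and 8.67% in the PBS libraries. Of the 13 mRNAs, 12 were highest of all 8 libraries in rFGF4 replicate 4, and 9 were lowest in rFGF4 replicate 2 and 4 in PBS replicate 3. These counts take reads as they were placed, and the lowest library of MT-ND2 depends on its nuclear copy. Leaving out rFGF4 replicate 4 took the median log2 fold change of the mRNAs to 0.016, against 0.12 with all libraries, with 9 of 13 above 0. Leaving out rFGF4 replicate 2 took it to 0.22. Then 6 members, namely MT-CO2, MT-ND2, MT-ND1, MT-ATP6, MT-CO3 and MT-TY, were under an unadjusted p of 0.05, and 0 passed the adjustment (lowest edgeR adjusted p = 0.123).

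The tRNAs carry the amino acids for the mitochondrial ribosome. Of the 22, 17 had a positive and 5 a negative estimate, from −0.16 for MT-TT to 0.41 for MT-TR, and 0 passed (edgeR adjusted p of 0.358 to 0.965). The highest tRNA levels were those of MT-TC, MT-TL1, MT-TY and MT-TN. MT-TL1 (3230 to 3304, + strand, for leucine) lies between MT-RNR2 and MT-ND1 and averaged 1089 ± 253 FPKM in the rFGF4 libraries and 1012 ± 70.3 FPKM in the PBS libraries. MT-TA, MT-TN, MT-TC and MT-TY (5587 to 5891, − strand, for alanine, asparagine, cysteine and tyrosine) form a run between MT-ND2 and MT-CO1. They averaged 399, 879, 1224 and 987 FPKM over the 8 libraries. No source used here gives the strand setting of the counting, so counts of a precursor from the opposite strand cannot be told apart from those of the tRNAs. MT-TQ, the glutamine tRNA (4329 to 4400, − strand), which had the lowest p of all members, stood at 2.52, 2.87, 2.93 and 3.36 CPM in rFGF4 replicates 1 to 4, against 2.92, 2.17, 2.46 and 2.33 CPM in PBS replicates 1 to 4, with a log2 fold change of 0.24 (95% interval −0.093 to 0.57, SE 0.15, edgeR adjusted p = 0.358). It overlaps MT-TI on the opposite strand by 3 bases. MT-TT, the threonine tRNA (15888 to 15953, + strand), stood at 5.37, 6.59, 5.30 and 6.76 CPM in rFGF4 replicates 1 to 4, against 6.78, 7.19, 5.97 and 6.94 CPM in PBS replicates 1 to 4, with a log2 fold change of −0.16 (95% interval −0.44 to 0.11, SE 0.12, edgeR adjusted p = 0.465). Both genes overlapped between the groups.

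In MT-TC and MT-TY, rFGF4 replicate 2 lay below the other 7 libraries. MT-TC stood at 93.5, 49.97, 113 and 129 CPM in rFGF4 replicates 1 to 4, against 84.2, 104, 98.8 and 109 CPM in PBS replicates 1 to 4. MT-TY stood at 82.5, 44.1, 94.8 and 97.7 CPM in rFGF4 replicates 1 to 4, against 69.2, 77.6, 78.0 and 86.5 CPM in PBS replicates 1 to 4. In both genes rFGF4 replicate 4 was highest, with log2 fold changes of −0.036 (edgeR adjusted p = 0.952, SE 0.25) and 0.036 (edgeR adjusted p = 0.946, SE 0.22). MT-TA in the same run was highest in rFGF4 replicate 2, at 29.5, 41.9, 29.9 and 34.9 CPM in rFGF4 replicates 1 to 4, against 29.1, 33.3, 30.6 and 36.0 CPM in PBS replicates 1 to 4. The lowest level of MT-TS1, the tRNA for serine (7446 to 7514, − strand), was in rFGF4 replicate 2 too, at 0.714 CPM from 52 counts, and its highest in rFGF4 replicate 4, at 3.45 CPM. This was the lowest count of any of the 37 genes in any library, and the MT-TS1 estimate of 0.11 (edgeR adjusted p = 0.908, SE 0.44) had the interval −0.89 to 1.12.

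A group of 5 tRNAs, picked out after their values were seen, varied more between libraries than the mRNAs around them, and were high in the same libraries. They were MT-TG (9991 to 10058, for glycine), MT-TR (10405 to 10469, for arginine) and the run MT-TH, MT-TS2 and MT-TL2 (12138 to 12336, for histidine, serine and leucine), all on the + strand between MT-CO3 and MT-ND5. Summed, they held 31.7, 72.9, 16.7 and 17.04 CPM (without TMM factors) in rFGF4 replicates 1 to 4, against 48.3, 18.1, 30.04 and 15.2 CPM (without TMM factors) in PBS replicates 1 to 4. rFGF4 replicate 2 was highest and PBS replicate 1 next, in each of the 5. MT-TL2 alone stood at 5.46, 18.8, 3.56 and 3.65 CPM in rFGF4 replicates 1 to 4, against 10.4, 3.70, 6.45 and 3.51 CPM in PBS replicates 1 to 4. Its largest value was 5.37 times its smallest, and that of MT-TR was 6.12 times, where the mRNAs of the same stretch, MT-ND3, MT-ND4L and MT-ND4, varied by 1.37, 1.23 and 1.67 times. The groups overlapped and the intervals were wide: MT-TL2 had a log2 fold change of 0.39 (95% interval −0.99 to 1.77, SE 0.61, edgeR adjusted p = 0.748) and MT-TR a log2 fold change of 0.41 (95% interval −0.99 to 1.82, SE 0.62, edgeR adjusted p = 0.738). Without rFGF4 replicate 2 all 5 estimates turned negative, at −0.21 for MT-TG, −0.19 for MT-TR, −0.25 for MT-TH, −0.40 for MT-TS2 and −0.51 for MT-TL2.

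**Figure D4:**
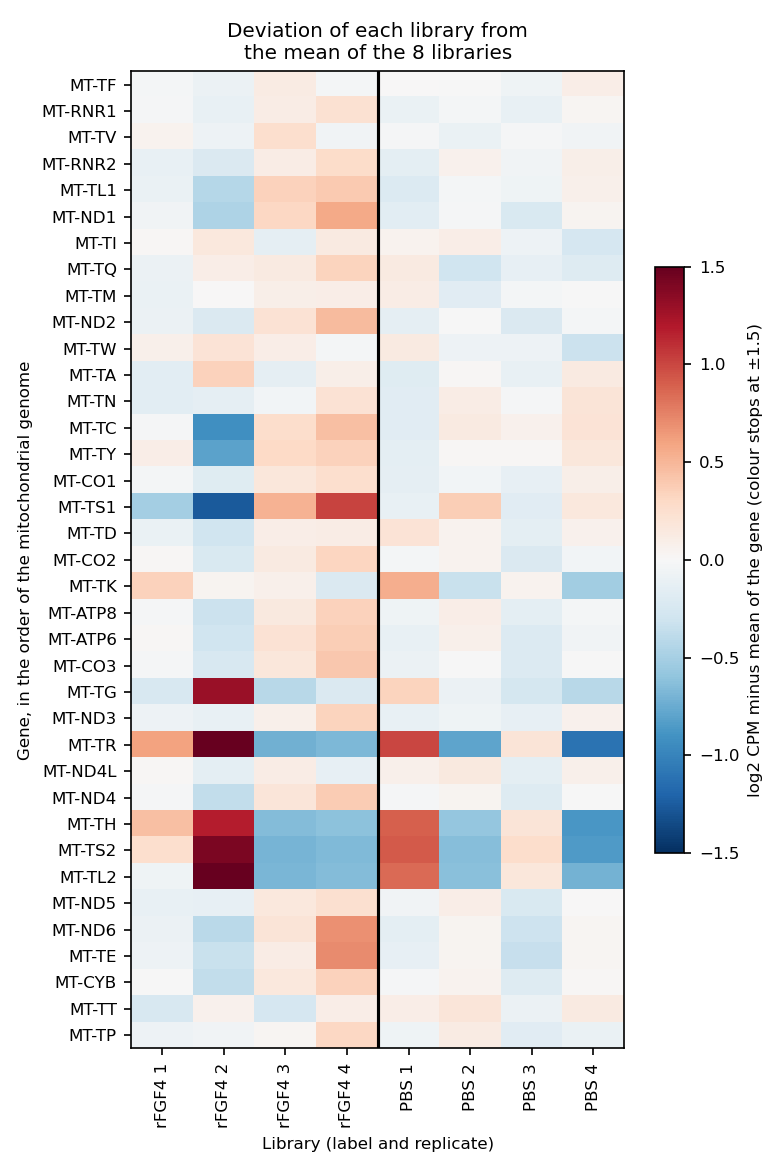
Log2 CPM of each mitochondrially encoded gene (rows, in genome order) in each library (columns, rFGF4 left of the line and PBS right of it), minus the mean of that gene over the 8 libraries; red is above and blue below the mean. MT-TG, MT-TR, MT-TH, MT-TS2 and MT-TL2 are most red in rFGF4 replicate 2, where MT-TC, MT-TY and MT-TS1 are blue, and most mRNAs are red in rFGF4 replicate 4.

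The nuclear copies of mitochondrial genes took up counts that bear on the members, since near-identical sequence lets a read be placed on either; how the authors placed such reads is unstated. The table listed 401 such copies, of which 354 were at 0 in every library and 9 were tested. A run of 7 copies on chromosome 1 (629062 to 634922 as the table gives it) held 99.8% of all counts on the copies, and 6 of the 7 were tested. The other tested copies were MTND6P4, MTCO2P2 and MTRNR2L12. MTATP6P1 had the most counts, and its part of the counts on itself and MT-ATP6 was 36.4, 34.7, 37.7 and 39.6% in rFGF4 replicates 1 to 4, against 39.1, 38.0, 37.2 and 37.6% in PBS replicates 1 to 4. MTND2P28 held 8.71 ± 3.998% in the rFGF4 libraries and 11.9 ± 0.805% in the PBS libraries of the counts on itself and MT-ND2, and MTCO1P12 held 3.68 ± 2.09% in the rFGF4 libraries and 4.29 ± 1.497% in the PBS libraries of those on itself and MT-CO1.

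Counts on 3 of these copies were far lower in rFGF4 replicate 2 than elsewhere. MTCO1P12 stood at 1137, 117, 1192 and 1092 CPM in rFGF4 replicates 1 to 4, against 1069, 1126, 413 and 1103 CPM in PBS replicates 1 to 4. rFGF4 replicate 2 and PBS replicate 3 lay below all other libraries. MTND2P28 stood at 957, 197, 1006 and 1025 CPM in rFGF4 replicates 1 to 4, against 926, 948, 927 and 894 CPM in PBS replicates 1 to 4, and MTND1P23 at 48.8, 7.09, 52.5 and 60.9 CPM in rFGF4 replicates 1 to 4, against 34.4, 37.8, 34.7 and 33.0 CPM in PBS replicates 1 to 4. In both, rFGF4 replicate 2 was lowest and the other 3 rFGF4 libraries lay above all PBS libraries. None of the 9 tested copies passed the edgeR test (adjusted p of 0.119 to 0.965), with log2 fold changes of −0.069 (edgeR adjusted p = 0.965, SE 0.62), −0.21 (edgeR adjusted p = 0.805, SE 0.42) and 0.27 (edgeR adjusted p = 0.793, SE 0.51) for these 3. MTND6P4, at 1.56, 1.14, 1.87 and 2.37 CPM in rFGF4 replicates 1 to 4, against 1.33, 0.755, 1.07 and 0.971 CPM in PBS replicates 1 to 4, was under 0.05 without adjustment, at a log2 fold change of 0.75 (edgeR adjusted p = 0.119, SE 0.26). With the counts of the 7 copies added to their mitochondrial genes, 0 of 37 members passed, and the estimates for MT-ND2 and MT-ATP6 were 0.17 and 0.15 in place of 0.22 and 0.17.

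**Figure D5:**
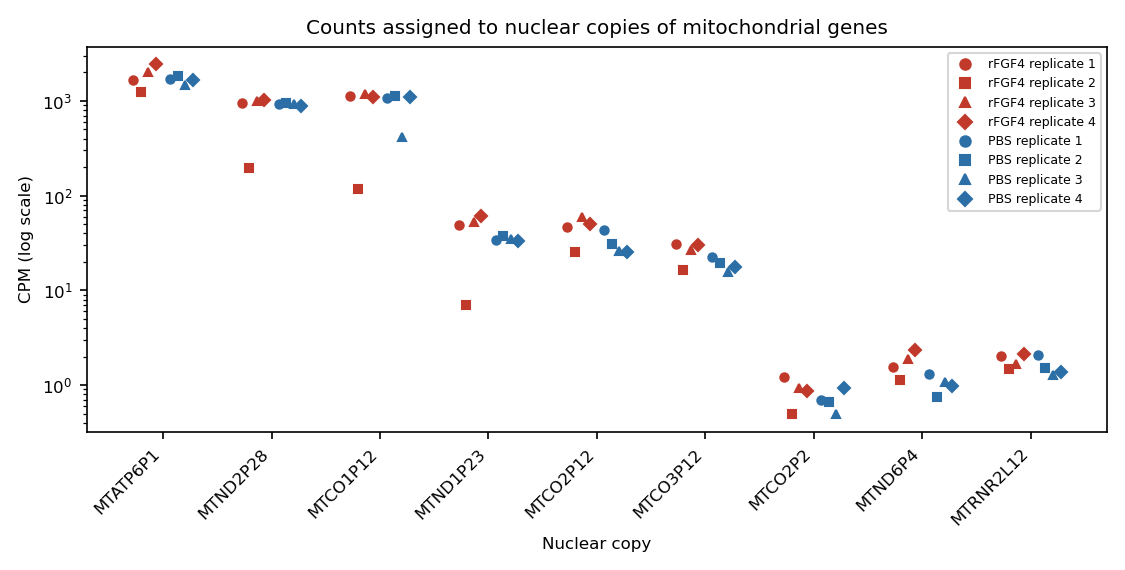
CPM on a log scale for the 9 tested nuclear copies of mitochondrial genes, with 1 point per library (rFGF4 to the left of PBS within a copy). MTND2P28, MTCO1P12 and MTND1P23 are lowest in rFGF4 replicate 2, at 197, 117 and 7.09 CPM, and MTCO1P12 is also low in PBS replicate 3, at 413 CPM.

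Nuclear genes that maintain and express the mitochondrial genome were taken as 5 lists of 71 genes, of which 69 were tested. Of these, 10 rose and 0 fell in the rFGF4 libraries (14.5% higher, beside 5.49% of all tested genes), and the median log2 fold change was 0.11. The 10 include TK2, which reached the filter on FPKM only through the rFGF4 libraries. The lists were chosen with earlier results of these data known, so the larger share may follow from that choice, which was not tested. In the list named mitochondrial transcription, 3 of 9 tested genes rose (33.3%, beside 5.49% of all tested genes), namely TFAM, TFB1M and MTERF4. By the roles given below, TFB1M and MTERF4 act on the mitochondrial ribosome, so the count is not one of transcription factors alone. TFAM, which packs the mitochondrial DNA and starts transcription, stood at 80.1, 81.3, 80.9 and 70.9 CPM in rFGF4 replicates 1 to 4, against 66.2, 64.7, 66.7 and 65.4 CPM in PBS replicates 1 to 4, at a log2 fold change of 0.25 (edgeR adjusted p = 0.0314, SE 0.059). In CPM, all rFGF4 libraries lay above all PBS libraries, with replicate 4 nearest to them. In FPKM the groups overlapped, with rFGF4 replicate 4 at 10.65 and PBS replicate 3 at 10.73. The call for TFAM ended in 13 of the 20 alternatives tried, among them with any 1 library other than rFGF4 replicate 4 left out, with limma, with total-count scaling and with no filter. TFB1M, which methylates the 12S rRNA, stood at 29.5, 30.8, 32.3 and 34.1 CPM in rFGF4 replicates 1 to 4, against 21.0, 18.7, 20.5 and 23.3 CPM in PBS replicates 1 to 4, without overlap, at a log2 fold change of 0.60 (edgeR adjusted p = 0.00463, SE 0.088). MTERF4, which takes part in ribosome assembly, had 0.53 (edgeR adjusted p = 0.0172, SE 0.11), and its call ended without PBS replicate 2, 3 or 4. POLRMT, the RNA polymerase of mitochondria, stood at 73.0, 63.2, 66.2 and 69.5 CPM in rFGF4 replicates 1 to 4, against 59.1, 54.6, 61.97 and 61.6 CPM in PBS replicates 1 to 4 and was not called, at 0.20 (edgeR adjusted p = 0.112, SE 0.068), although its groups did not overlap.

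Of 24 RNA processing and decay genes, 3 rose (12.5%, beside 5.49% of all tested genes). TRMT10C, a subunit of the enzyme that cuts the 5′ ends of mitochondrial tRNAs, stood at 73.5, 74.7, 78.5 and 70.4 CPM in rFGF4 replicates 1 to 4, against 57.2, 60.0, 62.8 and 53.6 CPM in PBS replicates 1 to 4, without overlap, at a log2 fold change of 0.35 (edgeR adjusted p = 0.0135, SE 0.066). PNPT1, a nuclease of mitochondrial RNA, had 0.32 (edgeR adjusted p = 0.00913, SE 0.056). TRMT5, a tRNA methyltransferase, had 0.39 (edgeR adjusted p = 0.0168, SE 0.078), and its call ended in 4 of the 20 alternatives, among them without rFGF4 replicate 1 or PBS replicate 1 or 2. Of 13 DNA maintenance genes, 2 rose (15.4%, beside 5.49% of all tested genes). TOP1MT, the mitochondrial type I topoisomerase, had 0.32 (edgeR adjusted p = 0.00753, SE 0.052). TK2, a kinase that supplies nucleotides for mitochondrial DNA, had 0.36 (edgeR adjusted p = 0.0463, SE 0.094), and its call ended in 16 of the 20 alternatives, among them with any 1 library left out, with limma, with total-count scaling and under each other filter on low values. TK2 averaged 1.27 FPKM in the rFGF4 libraries and 0.999 FPKM in the PBS libraries. It thus reached the filter of 1 FPKM only through the rFGF4 libraries, where it was higher.

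Of 17 mitochondrial aminoacyl-tRNA synthetases, 1 rose (5.88%, beside 5.49% of all tested genes), namely MARS2. This enzyme charges the methionine tRNA, MT-TM. MARS2 stood at 24.0, 21.5, 24.3 and 23.2 CPM in rFGF4 replicates 1 to 4, against 12.96, 14.7, 14.6 and 12.6 CPM in PBS replicates 1 to 4, with no overlap and a log2 fold change of 0.76 (edgeR adjusted p = 0.00153, SE 0.086). MT-TM itself, whose counts do not tell charged from uncharged tRNA, stood at 5.31, 5.69, 6.03 and 6.11 CPM in rFGF4 replicates 1 to 4, against 6.11, 5.06, 5.59 and 5.64 CPM in PBS replicates 1 to 4, with overlap and 0.046 (edgeR adjusted p = 0.825, SE 0.10). Of 6 tested biogenesis factors, 1 rose (16.7%, beside 5.49% of all tested genes), namely PPRC1, a coactivator of the PGC-1 family. PPRC1 had 0.63 (edgeR adjusted p = 0.00339, SE 0.086) and stood at 126, 112, 119 and 107 CPM in rFGF4 replicates 1 to 4, against 75.1, 67.6, 85.2 and 71.6 CPM in PBS replicates 1 to 4. The 19 nuclear core subunits of complexes I, III, IV and V had 0 genes past the edgeR threshold, which 10.0% of all tested genes passed. Of them 1 was under an unadjusted p of 0.05, as were 25.1% of all tested genes, and 1 of 19 estimates was above 0 (median −0.092). For the mitochondrially encoded mRNAs, which share precursors, 12 of 13 estimates were above 0, and 9 of 13 without rFGF4 replicate 4. Over all tested genes, 5799 of 11536 estimates were above 0. The difference between the nuclear and the mitochondrial set was not tested.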

How the data were processed

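RNA-seq values of 8 libraries, 4 labelled rFGF4 and 4 labelled PBS, were taken from 1 table. The authors deposited a column of FPKM and a column of counts per library, per the file headers, with 0.0001 FPKM in place of 0. The submitters' processing notes name HISAT2 2.0 and StringTie 1.3.0 without their roles, and no source used here states the genome build, the annotation or the strand setting, so coordinates are those of the table. The deposited counts are whole numbers, but 4 was more frequent (9781 entries) than 3 (3485) or 5 (1977), so a count need not be 1 fragment. Since the genes are human, the 521 of 58825 genes that are on chromosome Y or are XIST or TSIX were left out.

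Counts were tested with edgeR 4.0.16 in R 4.3.3 by the quasi-likelihood test with TMM factors, two-sided, on the 11536 genes with a mean of at least 1 FPKM over the libraries. Benjamini-Hochberg adjustment ran over all of them, with a threshold of 0.05. Each SE was back-calculated from the log2 fold change and its test statistic, and the 95% interval follows from it. Alternatives were DESeq2 1.42.0, limma 3.58.1 on log2(FPKM + 1), other pseudocounts, other scalings, other filters on low values, a replicate block, each library left out, and nuclear copies added to their genes. Chi-square per gene between replicates was 89.3 to 258 with each count taken as independent, which overstates the difference if 1 fragment is worth several counts. The members and gene lists were chosen with earlier results of these data known. Named were all members, the tested nuclear copies, POLRMT and TFAM, and the genes of the nuclear lists past the threshold. Of the 71 genes in those lists, MTRES1 had no entry under that name. Libraries held 62044121 to 73680756 counts, and the number of fragments behind them is unknown. No sequence is printed, because no human sequence table was used here.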

Additional observations from a re-analysis of the deposited data

Results flagged for a closer look

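Among 162 groups of 4 values checked, 8 had 1 library set apart from the other 3 by Dixon's test at the 95% level, where chance gives about 1 in 20 such groups. In rFGF4 replicate 2, MT-TG stood at 9.07 CPM, with 2.77 to 3.17 in the other rFGF4 libraries, and MT-TL2 at 18.8 CPM, with 3.56 to 5.46 in the others. The same library had the nuclear copies MTND2P28 at 197 CPM, with 957 to 1025 in the others, and MTCO1P12 at 117 CPM, with 1092 to 1192. Its mRNA counts per rRNA count were 7.76, with 8.44 to 8.58 in the others. PBS replicate 3 stood apart in MTCO1P12, at 413 CPM with 1069 to 1126 in the other PBS libraries. It also did in the FPKM of MT-ATP6 with MTATP6P1 per FPKM of MT-ATP8, at 0.633 with 0.655 to 0.656 in the others. TFAM stood at 70.9 CPM in rFGF4 replicate 4, with 80.1 to 81.3 in the other rFGF4 libraries. Of these 8, 5 lay in rFGF4 replicate 2, which stood apart in 166 of all tested genes (1.44%).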

How the results depend on the processing

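In each of the 20 alternatives, 0 of the 37 mitochondrially encoded genes were called, with a lowest adjusted p of 0.252 over the settings that kept all libraries and 0.123 over those that left 1 out. With 1 library left out, the difference in share ranged from 0.114 to 1.37 percentage points for all mitochondrial genes, from 0.154 to 1.31 for the mRNAs, from −0.039 to 0.062 for the rRNAs and from −0.018 to 0.15 for MT-ND6 among the mRNAs. DESeq2 called 1828 of all genes against 1157 with edgeR, and leaving out a library gave 601 (PBS replicate 2) to 1166 calls (rFGF4 replicate 4); for the nuclear genes of mitochondrial gene expression this gave 6 (PBS replicate 2) to 9 calls against 10. The replicate numbers were not treated as pairs. Deviations of same-numbered libraries correlated at 0.12, 0.058, −0.022 and 0.28. Seen from the rFGF4 libraries, replicates 1 and 4 correlated best with their own number. Seen from the PBS libraries, replicates 1, 2 and 4 did. With the replicate block, 1013 genes were called, 0 mitochondrial and 8 nuclear genes of the lists among them; the calls of TFAM, TRMT5 and TK2 ended and SUPV3L1 was added. Of 444 member values under the settings that kept all libraries, 9 changed direction. Limma with pseudocounts of 1, 0.1 and 0.01 gave −0.051, −0.051 and −0.051 for MT-TY and −0.13, −0.15 and −0.15 for MT-TS1. For the nuclear copy MTND1P23, whose values are not among the 9, it gave −0.12, −0.13 and −0.13. The replicate block gave −0.021 for MT-TY, −0.084 for MT-TS1 and −0.0030 for MTND1P23, and edgeR's own filter gave 0.00040 for MT-TF. Of 296 with 1 library left out, 25 did, and the log2 fold changes of those genes ranged as follows: MT-TF −0.055 to 0.021, MT-RNR2 −0.060 to 0.11, MT-TM −0.0031 to 0.091, MT-TA −0.037 to 0.14, MT-TN −0.15 to 0.00041, MT-TC −0.21 to 0.18, MT-TY −0.081 to 0.24, MT-TS1 −0.32 to 0.39, MT-TK −0.057 to 0.32, MT-ATP8 −0.022 to 0.20, MT-TG −0.21 to 0.55, MT-TR −0.19 to 0.94, MT-ND4 −0.011 to 0.23, MT-TH −0.25 to 0.65, MT-TS2 −0.40 to 0.67, MT-TL2 −0.51 to 0.79, MT-CYB −0.027 to 0.21. The copies ranged MTND2P28 −0.36 to 0.11, MTCO1P12 −0.31 to 0.30 and MTATP6P1 −0.036 to 0.28. The cause was not tested. Adding the nuclear copies to their genes was chosen after seeing the data. Because 1 fragment may be worth several counts, the precision of low counts such as those of MT-TS1 is unknown.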
